A study of Mus musculus with 7 samples.

Results

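Sarcomeric actins and tropomyosins are the thin filament genes Acta1, Actc1, Tpm1, Tpm2 and Tpm3, 5 of the 53083 genes with the same name and length in all 7 count tables of the series. They were chosen by gene name, and all 5 were present in every table and passed the filter on low counts in every comparison. RNA had been sequenced section by section from mouse tibialis anterior, the muscle at the front of the lower leg, with 1 table per muscle and 1 column per cryosection. The samples are 3 DMD muscles (DMD-1, DMD-2 and DMD-3), 2 Ctr muscles (Ctr-1 and Ctr-2) and 2 WT muscles (WT-1 and WT-2), DMD standing for the Duchenne muscular dystrophy of the series title. The labels state no genotype, strain, age, sex or treatment beyond these names. The column names hold mdx in the DMD tables, hDMD in the Ctr tables and pax7 in the WT tables, words that no label defines. Whether the muscles came from separate animals is not stated, so the p-values measure the spread between these muscles, which may be technical in part.

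The thin filament of the sarcomere, the contractile unit of striated muscle, is a double strand of actin along which tropomyosin dimers lie end to end and, together with troponin, gate the access of myosin. Acta1 encodes skeletal α-actin, the main actin of adult skeletal muscle, and Actc1 encodes cardiac α-actin, which is the main actin of the heart and is also made in embryonic and regenerating skeletal muscle. Tpm1 gives the α-tropomyosin of fast fibres, Tpm2 the β-tropomyosin of fast and slow fibres, and Tpm3 the α-tropomyosin of slow fibres, while other transcripts of the tropomyosin genes are made in many non-muscle cells, and gene counts do not separate them.

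The 250 bases before the RefSeq start of the 2 sarcomeric actin genes (GRCm38.p6) are shown because both hold a CArG box, the binding motif of serum response factor and a well-known element of muscle actin promoters. Capitals mark the CArG box. The Acta1 window lies at chr8:123894776-123895025 and the Actc1 window at chr2:114052876-114053125, both on the minus strand and written 5′ to 3′.
Acta1: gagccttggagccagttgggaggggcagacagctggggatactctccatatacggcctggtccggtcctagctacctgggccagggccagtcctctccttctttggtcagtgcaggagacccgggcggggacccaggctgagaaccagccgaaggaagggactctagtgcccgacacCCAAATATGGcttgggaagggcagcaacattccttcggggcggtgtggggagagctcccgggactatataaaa
Actc1: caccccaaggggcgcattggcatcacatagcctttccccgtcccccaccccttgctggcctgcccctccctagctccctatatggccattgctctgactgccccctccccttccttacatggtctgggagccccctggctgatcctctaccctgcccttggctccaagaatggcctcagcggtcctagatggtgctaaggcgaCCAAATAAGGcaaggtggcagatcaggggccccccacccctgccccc
The box lay 73 to 64 bases before the RefSeq start in Acta1 and 47 to 38 bases before it in Actc1. A CArG box, searched on both strands, occurred in 1.47% of the 32851 mouse promoter windows of the same length. No match was found in the 1 window of Tpm1, the 1 window of Tpm2 or the 2 windows of Tpm3. The RefSeq starts are not those of the annotation used for counting. The Actc1 window lies wholly inside the span counted as Actc1, and the windows of Tpm1, Tpm2 and Tpm3 reach into theirs. The Acta1 window also held 2 E boxes (CANNTG, in 66.2% of windows), 1 MCAT motif (CATTCC, in 12.6%) and 1 TATAAA (in 12.4%), none of which overlapped the CArG box, and the Actc1 window held none of these. A match describes the letters and does not show that a factor was bound.

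All 5 genes lie apart from one another in GRCm38. In the files' annotation Acta1 spans 8:123891769-123894751 on the minus strand with 8 exon blocks and 1536 exonic bases, and Actc1 spans 2:114047282-114053548 on the minus strand with 8 exon blocks and 1618 bases. Tpm1 spans 9:67022590-67049406 (minus strand, 13 exon blocks, 6485 bases), Tpm2 spans 4:43514711-43523765 (minus strand, 9 exon blocks, 2909 bases) and Tpm3 spans 3:90072649-90100902 (plus strand, 14 exon blocks, 6085 bases). No other gene overlapped an exon of theirs on the same strand. Reads that matched several places had been divided between them, and the share of sections with a count that was not whole was 90.9 to 100% for Acta1, 63.6 to 98.5% for Tpm1, 31.3 to 89.2% for Tpm2, 26.6 to 56.9% for Tpm3 and 0 to 21.5% for Actc1 in the different muscles. A single divided read makes a count not whole, so this share also rises with the count and does not give the fraction of reads divided. The median count per section was 3002 to 10167 for Acta1 and 12 to 190 for Actc1. The counts of each gene are therefore uncertain to the extent that near-identical sequences took part of its reads. Tpm3 shares reads with the copy Tpm3-rs7, which held 10.2 to 10.9% of the reads of both in the DMD muscles, 4.45 and 9.90% in the Ctr muscles and 3.03 and 5.78% in the WT muscles.

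The kept sections added up to 11181994 to 41407203 counts per muscle, of which mitochondrially encoded genes took 25.7 to 45.9%. Library scaling by the trimmed mean of M values (TMM) gave factors of 0.669 to 1.41. Dmd, the dystrophin gene, was at 9.24 to 14.8 scaled CPM (counts per 1000000 counts) in the DMD muscles, 9.56 and 15.9 in the Ctr muscles and 13.2 and 16.3 in the WT muscles, and did not differ past the threshold between DMD and Ctr (log2 difference -0.18 ± 0.29 (SE), edgeR adjusted p = 0.712). The fixed list of tibialis anterior fibre genes (Ckm, Des, Myh4, Myh1, Ttn and Ryr1) summed to 20132 to 23850 scaled CPM in DMD, 27367 and 36534 in Ctr and 26464 and 29134 in WT. Genes of heart muscle (Myh6, Nppa, Nppb, Tnni3, Myl7 and Ryr2) summed to 3.81 to 24.6 counts per muscle, too few for any to be tested, and Nppb was at 0 in all 7 muscles. The WT tables had been counted with another annotation than the Ctr and DMD tables, so for genes at large a difference from WT cannot be told apart from the counting, although the exons of the 5 genes were the same in all tables.

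Actc1, the cardiac α-actin gene, was the 1 member whose level rose in DMD muscle against both Ctr and WT, by 3.44-fold and 4.14-fold, and Tpm2, the β-tropomyosin gene, was the 1 member that fell, passing the test against WT but not against Ctr. The skeletal actin Acta1 and the tropomyosin genes Tpm1 and Tpm3 did not pass the test in any whole-muscle comparison. Acta1, Tpm1 and Tpm2 were among the most abundant genes in every muscle: by scaled CPM, Acta1 ranked 8 to 18, Tpm1 13 to 18 and Tpm2 25 to 31 of 13746 genes. Actc1 ranked 72, 130 and 232 in the DMD muscles, 388 and 473 in the Ctr muscles and 420 and 753 in the WT muscles. Tpm3 ranked 1672 to 3484. Together the 5 genes took 3.12 to 4.72% of all counts.

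Actc1 was at 220, 839 and 512 scaled CPM in DMD-1, DMD-2 and DMD-3, against 164 and 140 in Ctr-1 and Ctr-2 and 161 and 91.4 in WT-1 and WT-2. All 3 DMD muscles lay above all 4 others, and DMD-1 was close to the highest of these while DMD-2 stood well above. The means were 523 ± 309 CPM in DMD (SD, n = 3), 152 ± 17.2 in Ctr (n = 2) and 126 ± 49.2 in WT (n = 2). Such non-overlap upwards against all 4 WT and Ctr muscles was found in 14.5% of all genes. The counts behind these values were 11738 to 12836 per DMD muscle, 1642 and 2661 per Ctr muscle and 1116 and 2989 per WT muscle.

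Acta1 was at 12288, 16896 and 21993 scaled CPM in the DMD muscles, against 19369 and 25688 in the Ctr muscles and 17382 and 17817 in the WT muscles. In scaled CPM the DMD muscles spread over both other groups, DMD-1 being lowest of all 7 and DMD-3 above both WT muscles. This order depended on the scaling. In unscaled CPM Acta1 was at 17303, 22584.5 and 21614 in DMD, 20162 and 24685 in Ctr, and 13964 and 11909.5 in WT. Every DMD muscle then lay above both WT muscles. In bulk sections, fewer fibres and less of an RNA per fibre cannot be told apart, which holds for every level given here.

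Tpm1 was at 11558, 11088 and 16169 scaled CPM in the DMD muscles, against 13056 and 16632 in the Ctr muscles and 17210 and 19672 in the WT muscles. In scaled CPM the DMD muscles overlapped Ctr and lay below both WT muscles, as 24.1% of all genes did. The position against WT depended on the scaling. In unscaled CPM Tpm1 was at 16275, 14821 and 15891 in DMD, 13590 and 15983 in Ctr, and 13826 and 13149.5 in WT. Every DMD muscle then lay above both WT muscles. Tpm2 was at 4158, 4244 and 4955 scaled CPM in the DMD muscles, against 6609.8 and 6644 in the Ctr muscles and 9723 and 9049 in the WT muscles. In scaled CPM no groups overlapped for Tpm2: DMD was lowest, Ctr between and WT highest. Of all genes, 12.1% likewise lay lower in scaled CPM in every DMD muscle than in all 4 others. In unscaled CPM Tpm2 was at 5855, 5673 and 4870 in DMD, 6880 and 6384 in Ctr, and 7811 and 6048 in WT. The DMD muscles were then still lowest, but both Ctr muscles lay within the WT range.

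Tpm3 was a minor transcript at 32.2, 26.9 and 15.04 scaled CPM in the DMD muscles, against 14.1 and 27.4 in the Ctr muscles and 14.2 and 24.0 in the WT muscles. The groups overlapped fully, and the spread within each was as wide as the distance between them. Its counts were 345 to 1879 per DMD muscle, 228 and 322 per Ctr muscle and 264 and 293 per WT muscle, so Tpm3 was measured with far fewer reads than the other members.

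**Figure D1:**
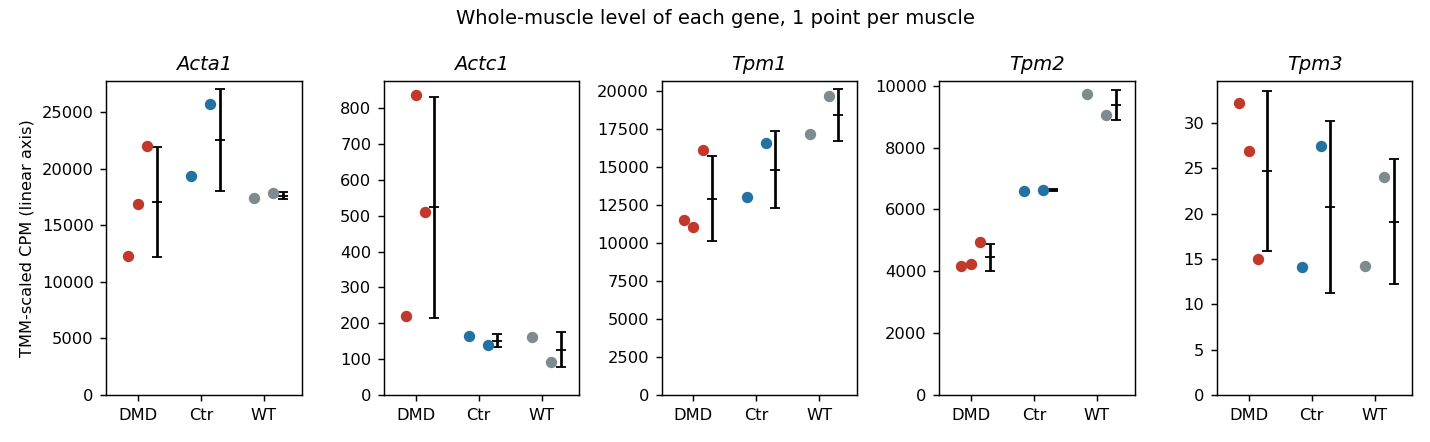
Whole-muscle level of each gene in TMM-scaled CPM (linear axes from 0, a different scale in each panel), with 1 point per muscle and the mean ± SD of each group beside its points. Actc1 is between 220 and 839 CPM in DMD against 91.4 to 164 in Ctr and WT. Tpm2 is lowest in DMD, higher in Ctr and highest in WT, where the order of Ctr and WT depends on the scaling.

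Set against each other per kilobase of exon, Acta1 averaged 11106 ± 3160.4 scaled CPM per kb in DMD (SD, n = 3), 14667 ± 2909 in Ctr (n = 2) and 11458 ± 201 in WT (n = 2), the highest of the 5 in every muscle. Tpm1 followed with 1995 ± 433, 2289 ± 389.9 and 2844 ± 268 CPM per kb in DMD, Ctr and WT. Tpm2 averaged 1531 ± 150.5 CPM per kb in DMD, 2278 ± 8.24 in Ctr and 3226 ± 164 in WT. Per kilobase, Tpm1 was above Tpm2 in all 3 DMD muscles and in Ctr-2, and below it in both WT muscles and in Ctr-1. This order depended on the division by exon length. By counts alone Tpm1 was above Tpm2 in every muscle, at 63.9 to 76.5% of the counts of Tpm1, Tpm2 and Tpm3. Actc1 averaged 324 ± 191, 93.9 ± 10.6 and 78.0 ± 30.4 CPM per kb in DMD, Ctr and WT, and Tpm3 was last with 4.06 ± 1.45, 3.41 ± 1.55 and 3.14 ± 1.14.

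The first comparison asked which of the 5 differed between DMD and Ctr muscle, tested with edgeR's quasi-likelihood test on the counts summed per muscle with Benjamini-Hochberg adjustment over 13746 genes. Of the 5, 1 passed at an adjusted p below 0.05, and 12.6% of all genes passed (7.17% higher and 5.44% lower). Actc1 was higher by 1.78 ± 0.49 on the log2 scale (SE, adjusted p = 0.0432). Tpm2 was -0.57 ± 0.23 and did not pass (adjusted p = 0.117), although its groups did not overlap, as was so downwards for 22.2% of all genes. Acta1 was -0.40 ± 0.30 (adjusted p = 0.394), Tpm1 -0.20 ± 0.27 (adjusted p = 0.661) and Tpm3 0.26 ± 0.38 (adjusted p = 0.680). The median of all genes was 0.02.

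The call of Actc1 between DMD and Ctr was close to the threshold. It ended without Ctr-1 (1.90, adjusted p = 0.219), without Ctr-2 (1.66, adjusted p = 0.159), without DMD-2 (1.28, adjusted p = 0.0899), without WT-1 (1.77, adjusted p = 0.0667), without WT-2 (1.77, adjusted p = 0.0669) and with the 2 groups alone in the fit (1.78, adjusted p = 0.0685), while over all alternatives its log2 fold stayed at 1.28 or above with edgeR or DESeq2 adjusted p of 3.10e-09 to 0.219. Tpm2 passed between DMD and Ctr in 3 of its alternatives: with DESeq2 (adjusted p = 0.0428), with a term for the replicate number (0.0492) and without DMD-3 (0.0446), the full range being 0.0428 to 0.439.

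Between DMD and WT, which share the DMD muscles with the comparison above, 2 of the 5 genes passed, and 15.2% of all genes did (8.25% higher and 6.91% lower). Actc1 was higher by 2.05 ± 0.50 on the log2 scale (SE, edgeR adjusted p = 0.0264). Tpm2 was lower by a log2 difference of -1.08 ± 0.23 (adjusted p = 0.0180), which is 0.474 times the WT level. Tpm1 was -0.51 ± 0.27 (adjusted p = 0.219), Acta1 -0.05 ± 0.30 (adjusted p = 0.933) and Tpm3 0.38 ± 0.38 (adjusted p = 0.525). The call of Actc1 ended without DMD-2 (adjusted p = 0.0525), WT-1 (0.125) or WT-2 (0.221), within a range of 8.63e-12 to 0.221 over its alternatives.

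The Tpm2 call against WT ended without WT-1 (adjusted p = 0.151), without WT-2 (0.149) and when counts were scaled by the library total alone (log2 difference -0.34, adjusted p = 0.209), the range being 1.26e-05 to 0.209. Scaling by the total alone moved the median of all genes to 0.82 in DMD against WT and 0.33 in DMD against Ctr. Under it Acta1 was 0.66 in DMD against WT and passed (adjusted p = 0.0355), Tpm1 was 0.22 against WT and 0.08 against Ctr, and Tpm3 was 1.23 against WT and passed (adjusted p = 0.0429). Of these, Tpm3 against WT lay above the shifted median of all genes and the others lay below it, and the sign of Acta1 and Tpm1 against WT and of Tpm1 against Ctr turned.

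Between WT and Ctr none of the 5 passed with edgeR, as was so for all but 0.356% of genes (49 of 13746, with 2477 at an unadjusted p below 0.05). Tpm2 had the lowest p of the 5 here, at 0.50 ± 0.25 on the log2 scale (unadjusted p = 0.0733, adjusted p = 0.322). Acta1 was -0.36 ± 0.33, Actc1 -0.27 ± 0.51, Tpm1 0.31 ± 0.30 and Tpm3 -0.12 ± 0.42, with adjusted p of 0.612 to 0.909. Tpm1 turned to -0.13 when counts were scaled by the total alone.

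**Figure D2:**
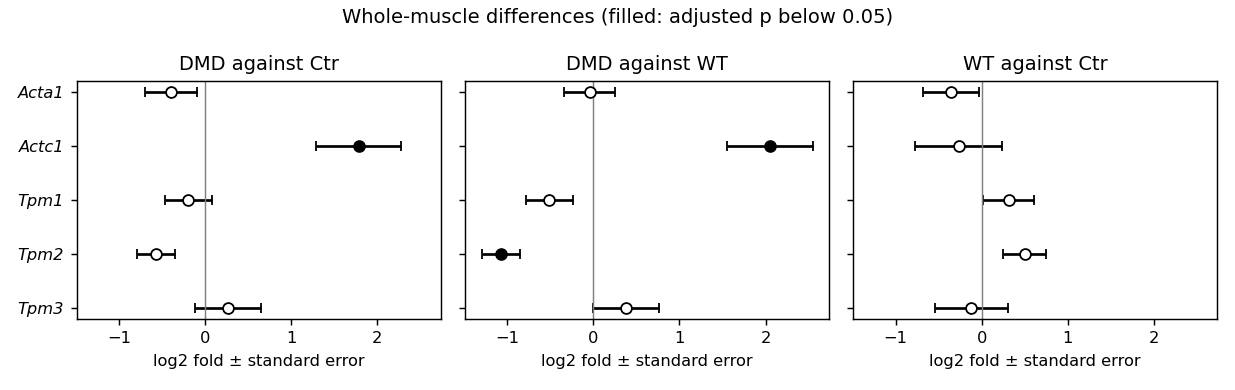
Log2 fold ± standard error of each gene in the 3 whole-muscle comparisons, with filled points where edgeR's adjusted p was below 0.05. Actc1 is filled on the right in both DMD comparisons at 1.78 and 2.05, Tpm2 is filled on the left at -1.08 against WT, and no point is filled for WT against Ctr.

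The makeup of the actin and tropomyosin transcripts can be read from ratios within a muscle, which do not depend on library scaling. Per kilobase, Actc1 made up 1.67, 4.50 and 2.16% of both sarcomeric actins in DMD-1, DMD-2 and DMD-3, against 0.798 and 0.514% in the Ctr muscles and 0.871 and 0.485% in the WT muscles. Acta1 remained the main actin transcript in every muscle, and the DMD shares lay above all others. The log2 ratio of Actc1 to Acta1 was higher by 2.02 in DMD than in Ctr (two-sided exact permutation p = 0.2, the smallest that 3 against 2 muscles allow) and by 2.00 than in WT and Ctr together (p = 0.0571, the smallest that 3 against 4 allow, adjusted p = 0.137 over 12 exact tests).

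Of the tropomyosin transcripts per kilobase, Tpm2 made up 44.4, 46.0 and 40.6% in the DMD muscles, against 53.0 and 47.1% in the Ctr muscles and 55.7 and 50.6% in the WT muscles. Tpm1 made up 55.4, 53.9 and 59.4% in the DMD muscles, 47.0 and 52.8% in the Ctr muscles and 44.2 and 49.3% in the WT muscles. The DMD muscles thus lay below all others in the Tpm2 share and above them in the Tpm1 share. The Tpm2 share was lower by a difference of -7.93 points in DMD than in WT and Ctr (exact permutation p = 0.0571, adjusted p = 0.137), a measure chosen after its values were seen. Tpm3 made up 0.165, 0.139 and 0.0589% in DMD, against 0.0539 and 0.0929% in Ctr and 0.0390 and 0.0642% in WT, and did not separate the groups (exact permutation p = 0.4 against Ctr and 0.171 against WT and Ctr, adjusted 0.4 and 0.218).

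The other actins and tropomyosins of the mouse are made mainly outside the sarcomere: Actb and Actg1, the cytoplasmic actins, Acta2, the actin of vascular smooth muscle, Actg2, the actin of visceral smooth muscle, and Tpm4, a cytoskeletal tropomyosin. In DMD against Ctr 1 of the 4 measured genes rose and none fell, and in DMD against WT 3 rose and none fell, with median log2 differences of 1.10 and 1.11 beside 0.02 and 0.07 over all genes. Tpm4 was at 39.2, 39.4 and 23.3 scaled CPM in the DMD muscles, against 14.7 and 17.7 in Ctr and 15.1 and 20.6 in WT. It rose by 1.07 ± 0.28 against Ctr on the log2 scale (edgeR adjusted p = 0.0361), a call that was lost when any 1 of Ctr-1, Ctr-2, WT-1, WT-2, DMD-1 and DMD-2 was left out and when the 2 groups were fitted alone. Actb was 1.19 ± 0.37 (adjusted p = 0.0621) and Actg1 1.14 ± 0.33 (adjusted p = 0.0501) against Ctr, named to complete the list. Over the alternatives 0 to 3 of the 4 rose against Ctr, and 0 to 3 rose and 0 to 1 fell against WT, where the Tpm4 call (0.93, adjusted p = 0.0479) was lost with DESeq2 size factors (adjusted p = 0.0507). Acta2 went the other way without passing, at -0.55 ± 0.31 against Ctr (adjusted p = 0.257).

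Among 14 partners of actin in the thin filament (nebulin, the leiomodins, and tropomodulins and other capping proteins among them), none passed in either direction in DMD against Ctr or against WT, and the median log2 differences were -0.04 and -0.12. Neb, the giant nebulin that runs along the thin filament and the most abundant of the 14, was -0.40 ± 0.27 against Ctr (edgeR adjusted p = 0.350). Over the alternatives 0 to 2 of the 14 fell against Ctr, and 0 to 5 rose and 0 to 3 fell against WT, where with scaling by the total alone 5 rose, Neb among them (0.70, adjusted p = 0.0405). Of 11 regulators of actin gene transcription, 10 were measured: 1 rose and 2 fell against Ctr. Srf, serum response factor itself, was at 2.42, 1.74 and 1.57 scaled CPM in DMD against 8.82 and 5.02 in Ctr and 3.18 and 1.56 in WT, and fell by 1.84 ± 0.36 against Ctr on the log2 scale (adjusted p = 0.0163), on 26 to 141 counts per DMD muscle, a call that was lost with scaling by the total alone (-1.52, adjusted p = 0.0558). It overlapped WT, where the log2 difference of DMD was -0.31 (adjusted p = 0.604), or 0.43 with scaling by the total alone. Abra, a muscle activator of serum response factor signalling, fell by 1.15 ± 0.27 against Ctr (adjusted p = 0.0271), and Fhl2, a LIM-domain cofactor, rose on 16 to 50 counts per DMD muscle against 3 in each Ctr muscle. Over the alternatives 0 to 2 regulators rose and 0 to 3 fell against Ctr.

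Genes of regenerating fibres were also higher in DMD. Of the 11 (Myh3, Myh8, Tnnt2, Myog, Myod1, Mymk, Mymx, Chrng, Ncam1, Ankrd1 and Myl4), 9 rose and none fell in DMD against Ctr, and their summed level was 513, 379 and 181 scaled CPM in DMD-1, DMD-2 and DMD-3, against 42.7 and 56.6 in Ctr and 51.3 and 66.1 in WT. The order of these sums within DMD was that of Ankrd1, an ankyrin repeat protein of striated muscle, at 286, 111 and 68.4 scaled CPM. Myh3 and Myh8, the embryonic and perinatal myosins, and Tnnt2, Myl4 and Mymk were highest in DMD-2, which was also highest in Actc1. The others of the 11, Myog, Myod1, Mymx, Chrng, Ncam1 and Ankrd1, were highest in DMD-1, which among the DMD muscles was lowest in Actc1. This split of the list was looked up after the values were seen. Mymk, which drives myoblast fusion, had 1083, 339 and 115 counts in the DMD muscles against 0 and 4 in Ctr. Mymx, its fusion partner, was at 0 in all 4 Ctr and WT muscles against 49, 12 and 7 counts in DMD, and Chrng, the fetal subunit of the acetylcholine receptor, had 275, 64 and 29 counts in DMD and 0 in both Ctr muscles. Without Ctr-1 none of the 11 passed, when 56 genes passed in all, and in the other alternatives 6 to 10 did.

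Other cell types differed between the same muscles. All 6 macrophage genes rose in DMD against Ctr (summed level 127 to 595 scaled CPM in DMD, 28.6 and 54.6 in Ctr, 47.4 and 57.7 in WT), as did 3 of 6 fibroblast genes (603 to 1289 in DMD, 247 and 396 in Ctr, 403 and 512 in WT) and 4 of 6 measured tendon genes (23.8 to 32.4 in DMD, 5.67 and 12.3 in Ctr, 33.5 and 46.8 in WT). Over the alternatives, 0 to 6 macrophage, 0 to 4 fibroblast and 1 to 6 tendon genes rose, the macrophage and fibroblast counts being 0 without Ctr-1. Among 9 smooth muscle and pericyte genes 2 fell and none rose (746 to 894 in DMD, 1041 and 1300.4 in Ctr, 994 and 1107 in WT), and none of 4 endothelial genes passed. Of 12 fast fibre genes 1 fell (Myh2, -1.27 ± 0.24, edgeR adjusted p = 0.0159), and of 8 slow fibre genes 1 rose (Atp2a2, 1.08 ± 0.28, adjusted p = 0.0380) and 1 fell (Myl3, -2.42 ± 0.19, adjusted p = 0.000907), while none of the 6 tibialis anterior fibre genes passed. The Myh2 call was lost with scaling by the total alone (-0.92, adjusted p = 0.0722), and over the alternatives 0 to 3 fast fibre and 0 to 3 smooth muscle genes fell, while 0 to 4 slow fibre genes rose and 1 to 3 fell. The part of these cell types in the differences of Actc1, Tpm2 and Tpm4 was not tested. Heart muscle markers were at or near 0 in all 7 muscles, as given above.

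Along the section order, Actc1 had no common course in DMD muscle, whereas in Ctr and WT muscle it declined steeply towards the last sections. The section numbers in the column names gave the order, and the labels do not state which end of the muscle was cut first. The kept sections of each muscle were divided into a first, a middle and a last part of equal section number, summed, and compared within muscles. Averaged over the 3 groups, Actc1 was 3.09-fold higher in the first than in the last part (1.63 ± 0.13 on the log2 scale, edgeR adjusted p = 9.57e-09). By p it was gene 2 of 12084. Of the 5 members it was the 1 that passed, when 3.11% of all genes did (2.09% higher and 1.02% lower in the first part).

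Actc1 was at 237, 284 and 146 scaled CPM in the first, middle and last part of DMD-1, at 784, 947 and 794 in DMD-2 and at 665, 554 and 283 in DMD-3. The values in Ctr were 267, 143 and 59.1 in Ctr-1 and 214, 173 and 61.0 in Ctr-2, and those in WT were 251, 149 and 80.7 in WT-1 and 184, 63.0 and 20.5 in WT-2. All 4 Ctr and WT muscles stepped down from first to middle to last, as 0.935% of all genes did, and the only DMD muscle to do so was DMD-3. The last part of every DMD muscle lay above the last part of every other muscle, as was so for 12.6% of all genes, while the first part of DMD-1 lay below those of Ctr-1 and WT-1. In scaled CPM, then, 1 of 3 DMD muscles was within the range of WT and Ctr at the first end, and at the last end none was. Over the whole muscle, scaling took Actc1 in DMD-1 from 310 to 220 CPM. Whether this contrast between the ends depends on the scaling was not tested.

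Tested within each group, the first part of the order against the last was 0.63 ± 0.18 on the log2 scale in DMD and did not pass (edgeR adjusted p = 0.0670), while it was higher by 2.01 ± 0.24 in Ctr (adjusted p = 1.77e-05) and by 2.25 ± 0.25 in WT (adjusted p = 9.78e-06). The difference between groups was itself tested, a comparison added after the data were seen. The step in DMD minus that in WT was -1.62 ± 0.31 (adjusted p = 0.0202), when 0.0993% of all genes passed. The step in DMD minus that in Ctr was -1.38 ± 0.29 and did not pass (adjusted p = 0.0820), when 0.0579% of genes did, and WT minus Ctr was 0.24 ± 0.35 (adjusted p = 1), when 0.0166% did. The difference from WT rested on WT-2: without it the value was -1.01 (adjusted p = 0.672), and it also missed the threshold without Ctr-1 (-1.66, 0.0520) and with scaling by the total alone (-1.67, 0.0518), the range being 3.17e-15 to 0.672.

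Per muscle, the log2 ratio of first to last part was 0.70, -0.02 and 1.23 in the DMD muscles, against 2.17 and 1.81 in the Ctr muscles and 1.64 and 3.17 in the WT muscles. Every DMD value lay below every Ctr and WT value, with DMD-3 nearest to WT-1, as was so for 3.53% of all genes. The exact permutation test of DMD against WT and Ctr gave a difference of -1.56 with p = 0.0571, the smallest possible (adjusted p = 0.137).

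**Figure D3:**
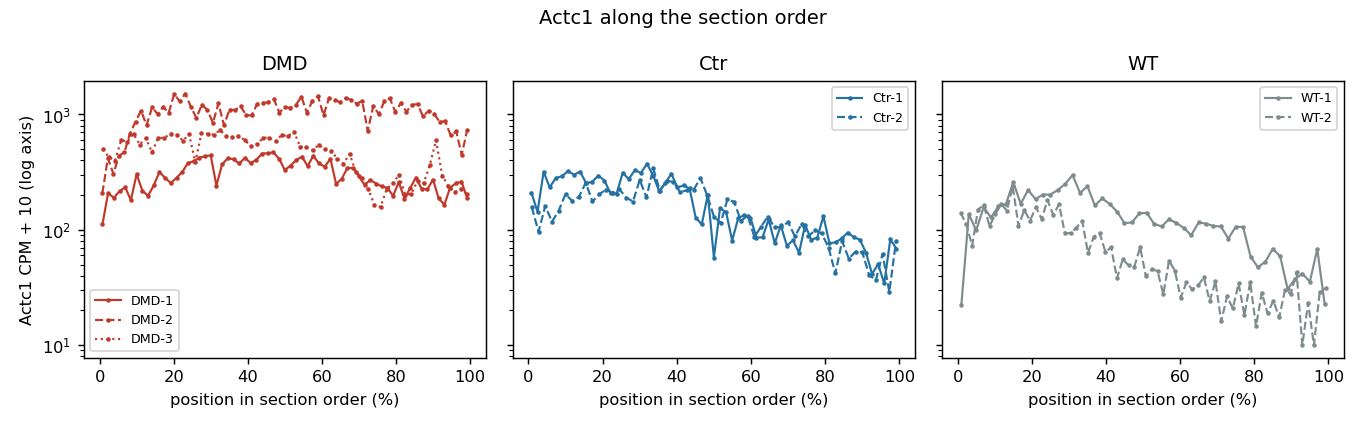
Actc1 in every kept section, as unscaled CPM plus 10 on a log axis, against the position in the section order in percent, with 1 line per muscle. Ctr and WT lines fall towards the later sections, with rank correlations of -0.71 to -0.90, after a highest section at 15.6 to 34.5% of the order. DMD-2 runs from 197 to 1507 CPM around a median of 1087, DMD-1 is highest near the middle and DMD-3 drops in the later sections. The lowest section of DMD-1 (101 CPM), DMD-2 and WT-1 (12.4 CPM) is the first of the order.

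Single sections showed the same course. Actc1 ranged from 101 to 459 unscaled CPM over the 65 sections of DMD-1 (median 273), from 197 to 1507 over the 67 of DMD-2 (median 1087) and from 148 to 719 over the 60 of DMD-3 (median 514). It ranged from 24.3 to 364 over the 61 sections of Ctr-1 (median 124), from 19.0 to 332 over the 55 of Ctr-2 (median 123), from 12.4 to 288 over the 50 of WT-1 (median 105) and from 0 to 229 over the 64 of WT-2 (median 36.7). The highest section lay at 32.0 to 34.5% of the order in Ctr-1, Ctr-2 and WT-1 and at 15.6% in WT-2, each being the value of a single section. Rank correlations with the order were -0.14, 0.14 and -0.67 in the DMD muscles, against -0.84 and -0.73 in the Ctr muscles and -0.71 and -0.90 in the WT muscles. Neighbouring sections, which share a muscle and a library, were alike in Actc1 with correlations of 0.73 to 0.87. The level also went with section depth, with rank correlations of 0.47, 0.47 and 0.44 in the DMD muscles, 0.20 and -0.092 in the Ctr muscles and 0.41 and 0.13 in the WT muscles, whose part in the pattern was not tested, and a WT-2 section held a median of 12 Actc1 counts.

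Tpm1, the fast-fibre tropomyosin gene, was at 13334, 11817 and 10472 scaled CPM in the first, middle and last part of DMD-1, at 10579, 11757 and 11060.0 in DMD-2 and at 17117, 15801 and 16319.9 in DMD-3. It was at 12129, 11791 and 14947 in Ctr-1, at 15437, 14699 and 18792 in Ctr-2, at 15289, 16796.0 and 20359.5 in WT-1 and at 17428, 20108 and 21506.0 in WT-2. The last part lay above the first in all 4 Ctr and WT muscles, as 10.2% of all genes did, and in 1 of the 3 DMD muscles. These steps were small beside those of Actc1: the log2 ratio of first to last part was 0.35, -0.06 and 0.07 in DMD, -0.30 and -0.28 in Ctr and -0.41 and -0.30 in WT.

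Across all muscles the Tpm1 step was -0.18 ± 0.07 on the log2 scale and did not pass (edgeR adjusted p = 0.188). It passed without DMD-1 (-0.21, adjusted p = 0.0173) and with scaling by the total alone (-0.33, adjusted p = 1.12e-05), the range over alternatives being 1.12e-05 to 0.575, and that scaling moved the median of all genes to -0.17. The step in DMD minus that in Ctr was 0.41 ± 0.16 (adjusted p = 0.594) and in DMD minus WT 0.48 ± 0.16 (adjusted p = 0.392). The exact permutation test of DMD against WT and Ctr gave a difference of 0.44 in the log2 ratio, with p = 0.0571 (adjusted p = 0.137), and 4.39% of all genes lay higher in every DMD muscle in this ratio.

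**Figure D4:**
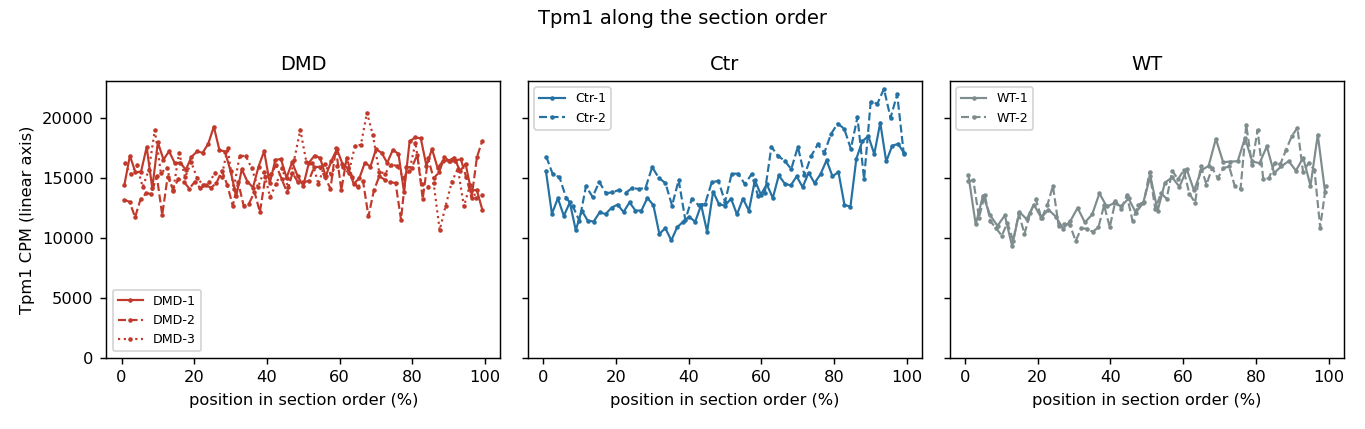
Tpm1 in every kept section, in unscaled CPM on a linear axis, against the position in the section order in percent, with 1 line per muscle. In Ctr and WT the later sections are higher, with rank correlations of 0.69 to 0.80 with the order, and in DMD the rank correlations are -0.069, 0.50 and -0.20.

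The other members had no step that passed. Acta1 was 0.00 ± 0.07 on the log2 scale in the first against the last part (edgeR adjusted p = 1), Tpm2 0.13 ± 0.07 (adjusted p = 0.427) and Tpm3 0.20 ± 0.16 (adjusted p = 0.672). With scaling by the total alone the values of Acta1 and Tpm2 were -0.15 and -0.02. Acta1 was also even between sections: its highest section was 1.21 to 1.497 times the median section of the same muscle, against 1.39 to 6.25 times for Actc1. For Tpm2 the same ratio was 1.199 to 1.43. The middle part against both ends was tested too, and with edgeR none of the 5 passed, when 0.174% of all genes did (629 at an unadjusted p below 0.05). Actc1 was 0.25 ± 0.11 there (adjusted p = 0.859), and its value in DMD minus that in Ctr was 0.00 ± 0.19 (adjusted p = 1), when 0.00828% of genes passed.

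**Figure D5:**
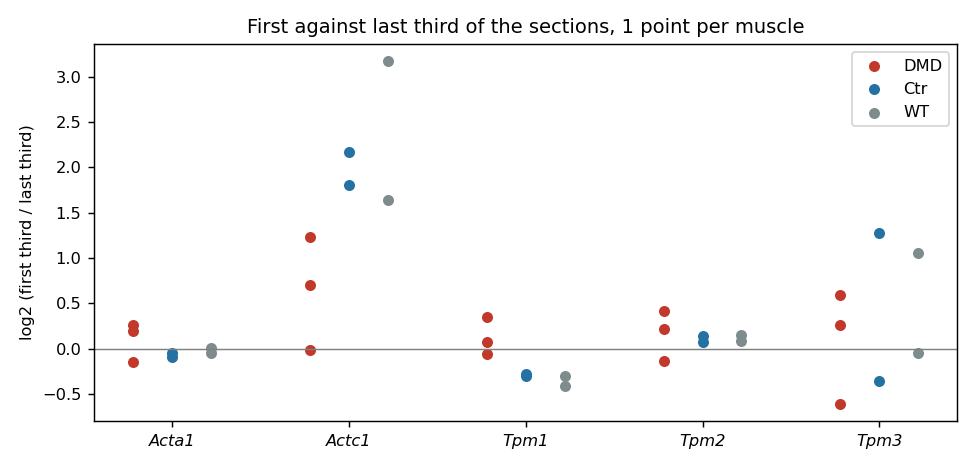
Log2 ratio of the first to the last part of the section order for each gene, with 1 point per muscle. For Actc1 the DMD points (-0.02 to 1.23) lie below all Ctr and WT points (1.64 to 3.17), and for Tpm1 the DMD points (-0.06 to 0.35) lie above them (-0.41 to -0.28).

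Section by section, the pairing of Actc1 with Tpm1 differed in sign between the muscles. The correlation of their log2(CPM + 10) values over the sections of a muscle was 0.15, 0.25 and 0.27 in the DMD muscles, against -0.74 and -0.79 in the Ctr muscles and -0.62 and -0.68 in the WT muscles. These are descriptions over 50 to 67 sections that share a muscle, an order and a library. Acta1 and Tpm2 went together in every muscle, with correlations of 0.32 to 0.80. Tpm1 and Tpm2, whose proteins pair in the thin filament, had correlations of 0.51, 0.33 and 0.70 in DMD, 0.055 and -0.061 in Ctr and 0.053 and 0.29 in WT. Tpm3, with few counts per section, had its clearest course in DMD-1, where it was higher towards the last sections (rank correlation 0.75 with the order). There Tpm3 also went with the macrophage genes, averaged after each was standardised within the muscle (correlation 0.85, against 0.046 to 0.50 in the other muscles). This was not particular to macrophage genes. In DMD-1 the correlation was 0.78 with the regenerating fibre genes, 0.77 with the other actins and tropomyosins and 0.58 with the fibroblast genes. It was lowest with the fast fibre genes, at -0.52.

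Among 1783 genes of at least 20 CPM in every muscle, the genes most like each member over sections were named by the mean of the 7 within-muscle correlations. For Actc1 these were H19, an imprinted noncoding RNA (0.64, but 0.081 in its lowest muscle), Ckmt2, the sarcomeric mitochondrial creatine kinase (0.56), and Fabp3, the heart-type fatty acid binding protein (0.54). For Acta1 they were Eef1a2, the muscle translation elongation factor (0.72), and the glycolytic genes Pygm (0.61) and Pgam2 (0.60). For Tpm1 they were Casq1, the calsequestrin of fast fibres (0.67), Aldoa, an aldolase (0.67), and Myl1, a myosin light chain of fast fibres (0.61). For Tpm2 they were Ogdh, an enzyme of the citric acid cycle (0.59), Chchd10, a mitochondrial protein (0.54), and Hspb6, a small heat shock protein (0.54). For Tpm3 no gene was close, the highest being Ftl1, the ferritin light chain, at 0.32. These means hide a spread between muscles. In their lowest muscle Ckmt2 and Fabp3 were at 0.14 and 0.25 with Actc1. Ogdh, Chchd10 and Hspb6 were at 0.069, 0.36 and 0.29 with Tpm2 in theirs. The genes named for Acta1 and Tpm1 were at 0.31 to 0.58 in theirs.

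Other cell types also followed the order. For correlations over sections each list was averaged after its genes were standardised within a muscle. The 12 fast fibre genes had correlations with Actc1 of -0.034 to 0.25 in the DMD muscles and -0.53 to -0.67 in the Ctr and WT muscles, and with Tpm1 of 0.26 to 0.86 in all 7. The tendon genes were negatively correlated with Actc1 in every muscle (-0.37 to -0.75) and summed to 16.1 to 38.8 scaled CPM in the first and 30.7 to 54.8 in the last part of the DMD muscles, 2.17 to 8.63 and 11.2 to 21.1 in Ctr, and 13.8 to 24.2 and 71.5 to 92.9 in WT. In the first against the last part 2 of 6 measured tendon genes fell, 2 of 8 smooth muscle and pericyte genes rose, and 2 of 12 fast fibre genes rose while 2 fell. Acta2, the smooth muscle actin, rose by 0.60 ± 0.08 on the log2 scale (edgeR adjusted p = 2.19e-05) and Myh2, the myosin of fast oxidative fibres, by 0.77 ± 0.11 (adjusted p = 4.20e-05). None of the 14 thin filament partners, 9 measured transcription regulators or 10 measured regenerating fibre genes passed. With scaling by the total alone 10 fast fibre genes and 4 thin filament partners fell, Neb among them (-0.25, adjusted p = 0.0224), and over all alternatives 0 to 10 and 0 to 4 fell. The part of these cell types in the course of Actc1 and Tpm1 was not tested.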

How the data were processed

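Single cryosections had been sequenced with poly(A) priming, molecular identifiers and a section barcode, per the labels' protocols. The deposited values are expected counts: per the file headers featureCounts 2.0.1 summed exons by gene name, dividing reads with several matches, and per the submitters' processing notes STAR 2.7.7a and GRCm38 were used. Sections with at least 1000 counts and 20% of their muscle's median were kept (422 of 525), summed per muscle, or per part of the section order, and rounded. The muscle was the replicate. Tests used edgeR 4.0.16 (quasi-likelihood, TMM scaling, Benjamini-Hochberg adjustment over all genes) in R 4.3.3, exact permutation tests, and DESeq2 1.42.0 as an alternative. The steps were tested on simulated data. In DMD against Ctr, 18% of genes given a log2 difference of 1 in size were called, and 87% of those given 2. A gene that did not pass may therefore still differ. Besides the 5 members, the text names up to 3 genes of each list (called ones first, by size of change in DMD against Ctr, otherwise the most abundant) and 3 most similar genes per member; Actb, Actg1, Acta2 and the genes under other observations were chosen after their values were seen. The members and lists were chosen with earlier results of these data known. Group differences along the order, scaling by the total alone, leaving out mitochondrial genes, adding Tpm3-rs7 to Tpm3 and the exact tests of Tpm2 shares, tropomyosin ratios and steps along the order were added after seeing the data. Promoter windows are from RefSeq. The number of muscles, 2 or 3 per group, limits the precision.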

Additional observations from a re-analysis of the deposited data

Results flagged for a closer look

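The step of Actc1 from the last to the first part of the section order differed between DMD and WT muscle by a test of the difference itself: -1.62 ± 0.31 on the log2 scale (edgeR adjusted p = 0.0202). It was lower in all 3 DMD muscles (0.70, -0.02 and 1.23) than in both WT muscles (1.64 and 3.17). Without WT-2 the difference was -1.01 (adjusted p = 0.672). No cause was tested.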

How the results depend on the processing

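Of 5 genes, 1 passed in DMD against Ctr; the number was 2 with DESeq2, 2 with the replicate block, 0 with the 2 groups alone and 0 to 2 when 1 muscle was left out. In DMD against WT 2 passed, Actc1 and Tpm2 (0 to 2 with 1 muscle left out, and 3 with scaling by the total alone, namely Actc1, Acta1 and Tpm3). Along the order, first against last gave 1 (2 with scaling by the total alone, 1 to 2 with 1 muscle left out), and middle against ends gave 0 (1 without the filter on low counts). The group differences of first against last gave 0 for DMD minus Ctr (1 without the filter, 0 to 1 with 1 muscle left out) and 1 for DMD minus WT (0 with scaling by the total alone, 0 to 1 with 1 muscle left out).

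Signs of values that had not passed turned as follows, on the log2 scale. With scaling by the total alone, Tpm1 was 0.084 in DMD against Ctr, 0.22 in DMD against WT and -0.13 in WT against Ctr, Acta1 was 0.66 in DMD against WT and -0.15 in first against last, and Tpm2 was -0.019 in first against last and -0.0068 in its WT minus Ctr difference. Without the filter, Acta1 was 0.0018 in DMD against WT and -0.0054 in first against last, and Actc1 was 0.024 in the middle-against-ends difference of DMD minus Ctr (0.013 with DESeq2 size factors). With thinned sections Tpm3 was 0.060 in WT against Ctr, and with narrower outer parts as ends Tpm1 was 0.054 in the first-against-last difference of WT minus Ctr. With 1 muscle left out, Tpm3 ranged from -0.15 to 0.80 in DMD against Ctr and -0.54 to 0.43 in WT against Ctr, Acta1 from -0.27 to 0.13 in DMD against WT and -0.020 to 0.043 in first against last, and Actc1 from -0.74 to 0.084 in WT against Ctr. The differences between groups ranged from -0.20 to 0.21 (Actc1) and -0.85 to 0.010 (Tpm3) for middle against ends in DMD minus Ctr, -0.068 to 0.20 (Tpm2) and -1.35 to 0.28 (Tpm3) for first against last in DMD minus Ctr, -0.098 to 0.17 (Tpm2) in DMD minus WT, and -0.35 to 1.16 (Actc1), -0.028 to 0.065 (Tpm2) and -0.81 to 0.84 (Tpm3) in WT minus Ctr. The cause was not tested.

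Whether the replicate numbers shared between groups pair the muscles was not settled. Deviations from the group mean correlated by 0.0060 to 0.19 between same-numbered muscles and by -0.19 to 0.064 between differently numbered ones. In a group of 2 muscles the deviations mirror each other, so these correlations cannot decide it. With the replicate block Actc1 was 1.71 and Tpm2 -0.66 (edgeR adjusted p = 0.0492) in DMD against Ctr, and 3891 genes passed against 1733 without it. The count was 683 with the 2 groups alone, 2998 without the filter, 1031 with thinned sections and 56 to 3425 with 1 muscle left out. In DMD against WT 2084 genes passed, 5148 with scaling by the total alone, 4053 with the block, 3208 without the filter, 852 with thinned sections and 68 to 3595 with 1 muscle left out. In WT against Ctr 49 passed, 475 with DESeq2, 858 without the filter, 213 with scaling by the total alone, 586 with the 2 groups alone, 793 with the block, 79 with thinned sections and 2 to 513 with 1 muscle left out. Tpm3, at a median of 3 to 29 counts per section, is limited by depth.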

Other observations

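Genes outside the thin filament were also higher in the first part of the section order, and were chosen after their values were seen. The myelin gene Mbp was higher in the first than in the last part by 1.501 ± 0.12 on the log2 scale (edgeR adjusted p = 1.06e-08). Its log2 ratio of first to last part was 0.29, 0.28 and 1.64 in the DMD muscles, 1.99 and 1.78 in the Ctr muscles and 2.20 and 1.72 in the WT muscles. The DMD muscles thus lay below all others, as they did for Actc1 and for 3.53% of all genes. Hbb-bs, a haemoglobin gene of red blood cells, was higher by 1.77 ± 0.21 (adjusted p = 3.68e-06). Its log2 ratio was 2.48, 0.61 and 0.024 in the DMD muscles, 1.49 and 3.47 in the Ctr muscles and 1.92 and 1.52 in the WT muscles. For Hbb-bs the DMD muscles therefore overlapped the others.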
